A study of Schizosaccharomyces pombe with 4 samples.

Results

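28S rRNA, the RNA of the large ribosomal subunit, was followed in CRAC libraries of Mkt1 from fission yeast. CRAC (cross-linking and analysis of cDNAs) irradiates living cells with UV light, purifies a tagged protein under stringent conditions and sequences the RNA that stays attached to it. In the Mkt1-HTP strain the gene carried the HTP purification tag and a kanamycin marker (mkt1-HTP-KanR), and the control had no tag. Both strains were h+ and held the centromeric insertion otr1R(Sph1):ade6+ as well as the alleles ade6-210, leu1-32 and ura4D18. Both were grown in PMG medium without tryptophan at 32 °C and irradiated for 42.5 s, with 2 libraries for each. Members were the cDNAs on chromosome III that ran in the sense of the rRNA and whose middle lay 2500 nt or more from the first base of 18S, in any of the 3 rDNA units of the assembly. They numbered 5573 of 24468 distinct cDNAs in Mkt1-HTP replicate 1, 7783 of 26899 in Mkt1-HTP replicate 2, 1331 of 1743 in control replicate 1 and 5591 of 8142 in control replicate 2, or 20278 of 61252 in all.

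18S, 5.8S and 28S rRNA are cut from a single precursor that RNA polymerase I makes from tandem repeats. The 28S chain carries the peptidyl transferase centre and, near its 3′ end, the sarcin-ricin loop, where elongation factors bind. Mature rRNA is very abundant in growing yeast and is a usual background of such purifications, so an untagged strain is sequenced beside the tagged one to show what comes down without the bait. A peptide left on a cross-linked base can make the reverse transcriptase skip it, and a deletion in a cDNA is therefore read as a possible mark of the cross-linked base.

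Positions are given in the rDNA unit, counted from 0 at the first base of 18S, and a position in 28S counted from 1 is the unit position less 2718. The 28S gene (SPRRNA.47, SPRRNA.48 and SPRRNA.49) is 3485 nt long and spans 2719 to 6203, at III:6057-9541 and III:16927-20411 on the minus strand and III:2443713-2447197 on the plus strand. The 3 copies had 0 differing positions, so the copy from which a cDNA came cannot be known. No cDNA had its middle between 2500 and the first base of 28S in any library, so the middles of the chosen cDNAs all fell in the annotated mature RNA. Some cDNAs reached beyond its last base at 6203. Their counts were 126 (Mkt1-HTP replicate 1), 58 (Mkt1-HTP replicate 2), 0 (control replicate 1) and 52 (control replicate 2). A cDNA is a row of the deposited tables, distinct in its ends or its deletions, and counts of very abundant RNAs are held back by this. Depth was unequal. The recorded totals of mapped cDNAs were 544192 and 483073 for replicates 1 and 2 of Mkt1-HTP, against 27996 and 135763 for the control. How far 28S was held back more in the deeper Mkt1-HTP libraries was not tested. A window is a stretch of 100 nt to which a cDNA is assigned by its middle.

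Deletions recurred at 8 short sites, which were picked after their counts had been seen. The 6 that were deleted in both Mkt1-HTP libraries, and in 10% or more of the overlapping cDNAs of a control library, are shown here with their flanks, since the comparison of deletions turns on them. Capitals mark the bases within which the commonest deletion can be placed, because a deletion in a run of equal letters has no single position. The sequences come from the RefSeq assembly ASM294v3, and each coordinate is that of the first copy, on the minus strand.
Site 4553 to 4554, III:7693-7721: gcucucgacggcccUUgaaaauccaacgg
Site 4591 to 4594, III:7654-7682: cuucggguccuugUUUUcacaucuggucg
Site 4791 to 4793, III:7454-7482: gucuuuucucgccUUUcggggugagaagg
Site 4978 to 4984, III:7265-7293: gccagaaaguggUGUUGacgcaaugugau
Site 5280 to 5282, III:6965-6993: aagugggaguaugUUUcggcauacgccgg
Site 5361 to 5364, III:6884-6912: ggauuuauuucccAUAUucuagcguuaaa
Of these, 4 were runs of U alone, and the other two held U with G or with A.

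28S rRNA took up less of the distinct cDNAs of either Mkt1-HTP library than of either control library. It held 22.8% of distinct cDNAs in Mkt1-HTP replicate 1 (95% Wilson interval 22.3% to 23.3%) and 28.9% in replicate 2 (28.4% to 29.5%). In the control it held 76.4% in replicate 1 (74.3% to 78.3%) and 68.7% in replicate 2 (67.7% to 69.7%). Both control libraries lay above both Mkt1-HTP libraries. The means were 25.9% ± 4.35 (SD, n = 2) and 72.5% ± 5.44 (SD, n = 2), a difference of -46.7 percentage points, with an exact permutation p of 0.333 (two-sided). With 2 libraries against 2 no smaller p than 0.333 can be had, and p-values here measure only the spread between these libraries, which the study calls biological replicates. A share falls when other RNAs are recovered in larger number, and the 2 cannot be told apart from shares. A share of distinct cDNAs can also vary with depth, which was greater in both Mkt1-HTP libraries. The libraries were not compared at equal depth.

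The balance within ribosomal RNA differed as well. There were 4.0 and 2.94 cDNAs of 28S for each cDNA of 18S, the RNA of the small subunit, in Mkt1-HTP. The control had 24.6 and 8.96. The groups did not overlap, but the first control value rests on 54 cDNAs of 18S, and the control libraries differed from each other by more than the second differed from Mkt1-HTP. The means were 3.47 ± 0.75 (SD, n = 2) and 16.8 ± 11.1 (SD, n = 2), with an exact permutation p of 0.333. Without control replicate 1 the difference of the ratios went from -13.3 to -5.49. The ratios, too, were not compared at equal depth. Of all cDNAs in the sense of the rRNA within the units, from 18S to 28S with the stretches between the genes, those of 28S were 75.3% and 71.7% in Mkt1-HTP against 93.9% and 84.6% for the control.

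**Figure D1:**
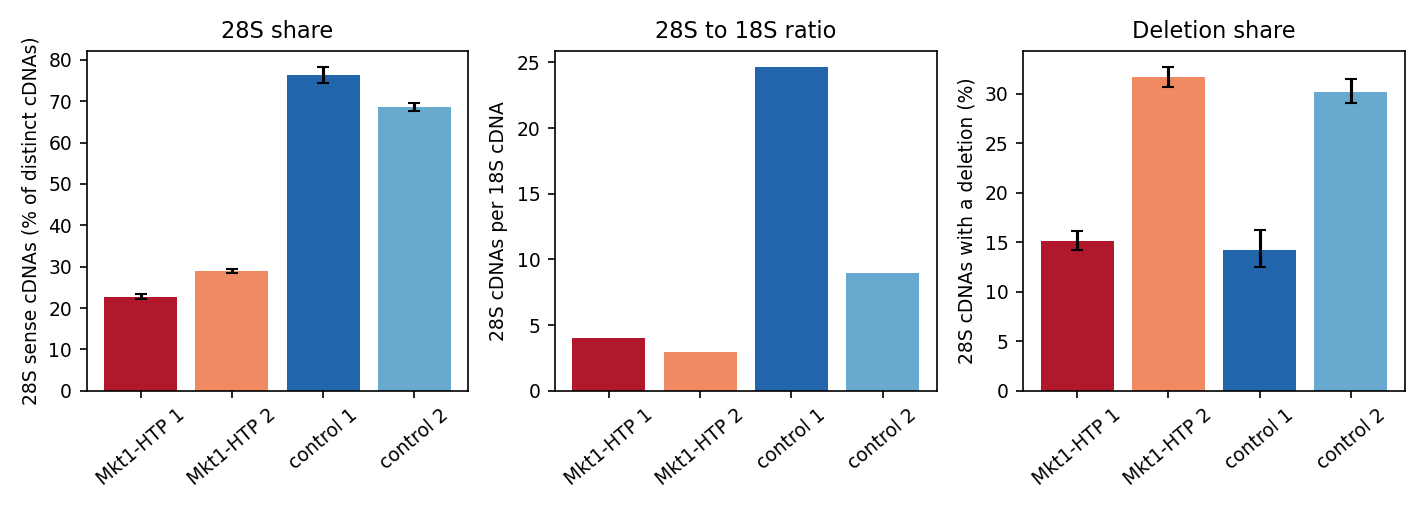
28S sense cDNAs by library: their share of all distinct cDNAs (percent, left), their number for each 18S cDNA (middle) and the share of them with a deletion (percent, right). Whiskers are 95% Wilson intervals, which cover counting error only. The first measure separates Mkt1-HTP (22.8% and 28.9%) from the control (76.4% and 68.7%), while the deletion share separates replicate 1 (15.1% and 14.3%) from replicate 2 (31.7% and 30.2%).

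Both Mkt1-HTP medians of length lay above both control medians. The median cDNA of 28S was 59 nt and 57 nt long in Mkt1-HTP, and 42 nt and 54 nt for the control, with control replicate 1 the shortest. The 28S sequence had at least 1 cDNA over 88.6% and 97.0% of its bases in Mkt1-HTP. In the control the figures were 46.7% and 83.9%, lowest in control replicate 1, which was the shallowest library.

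In spite of that breadth, most cDNAs came from a few places, and the foremost place was the same in all 4 libraries. The window at 5300 to 5399 (28S positions 2582 to 2681) held 45.8% of the 28S cDNAs of Mkt1-HTP replicate 1 and 24.6% of those of replicate 2. In the control it held 74.9% in replicate 1 and 42.6% in replicate 2. It was the highest window of each library, and within each replicate number the control was higher. Whether that order holds at equal depth was not tested. Coverage peaked at 5364, 5365, 5366 and 5367 in the order in which the libraries were just named, where 49.0%, 25.7%, 76.3% and 44.5% of the 28S cDNAs lay over the base. The summits thus fell within 4 nt of each other, with and without the tagged protein.

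The ends of the cDNAs drew the same boundary. Ends were ranked by counts summed over the libraries of a group. The commonest first base in both groups was then 5349, the start of 134 and 99 cDNAs in Mkt1-HTP and of 54 and 147 for the control. In single libraries others exceeded it. Base 5354 had 141 in Mkt1-HTP replicate 1 and 67 in control replicate 1, and base 4952 had 138 in Mkt1-HTP replicate 2. Of the 5 commonest starts in each group, 4 were common to both, namely 5349, 5350, 5351 and 5354. The fifth was 4952 in Mkt1-HTP, with 6 and 138 cDNAs against 0 and 64 in the control, and 5353 in the control. The 5 commonest last bases lay between 5371 and 5399 in Mkt1-HTP and between 5370 and 5399 for the control, and 4 of them (5371, 5375, 5387 and 5399) were again common to both. Of the ends named here, the commonest in any library was the last base 5375, with 5.41% of the 28S cDNAs of control replicate 1.

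**Figure D2:**
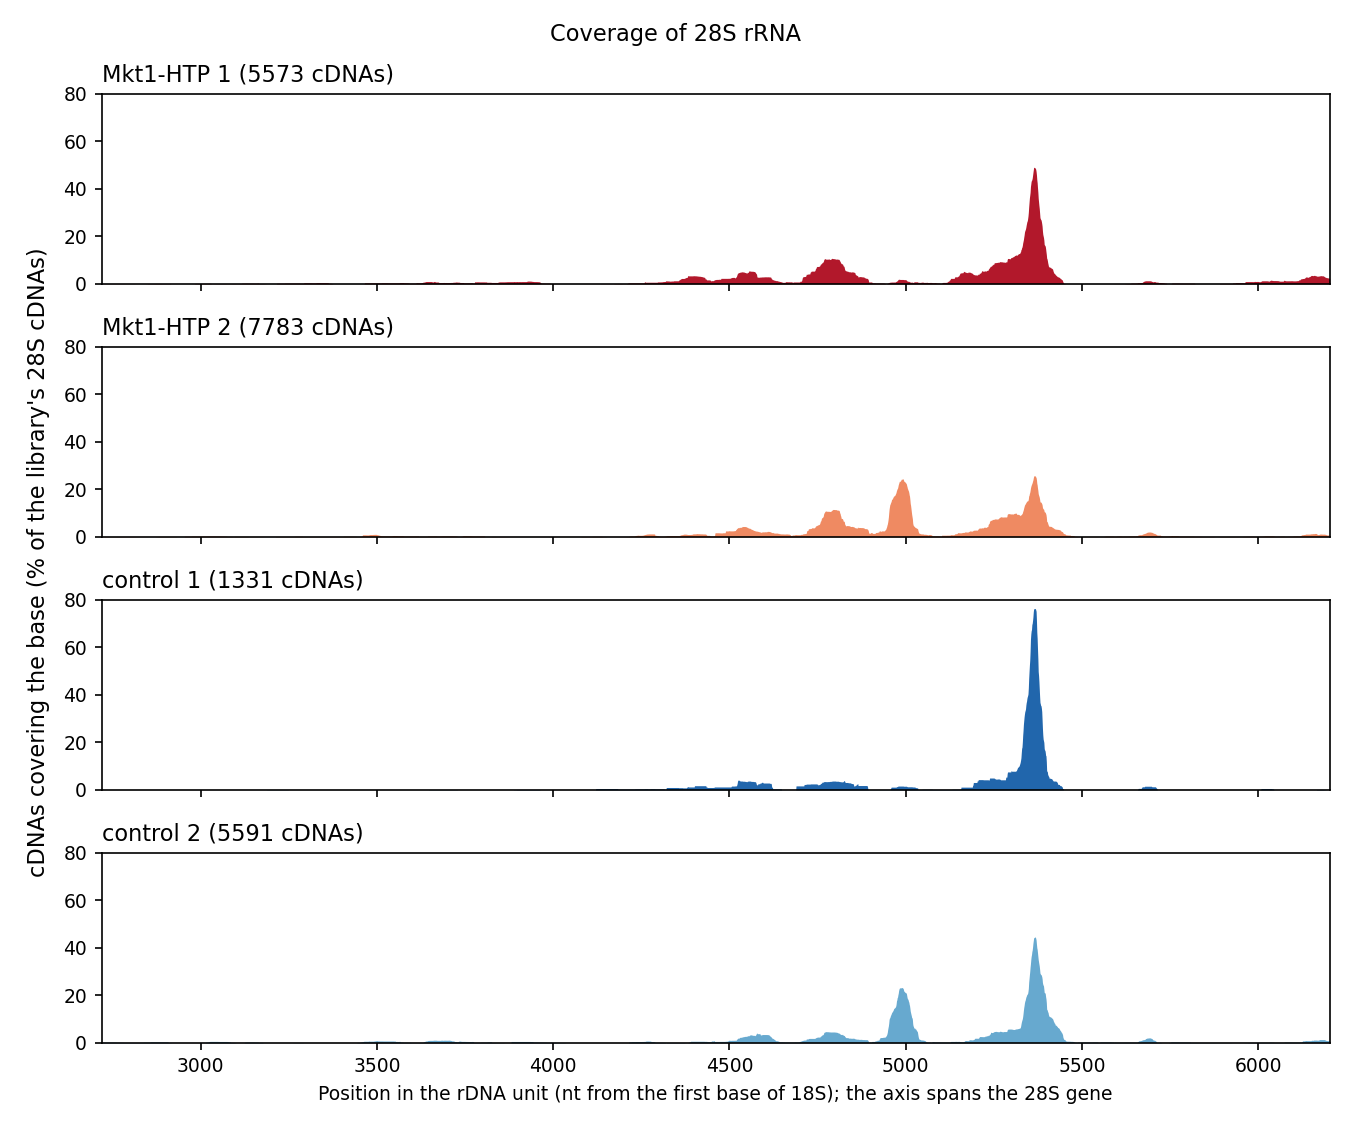
Coverage along 28S rRNA in each library: horizontal axis, position in the rDNA unit (nt from the first base of 18S, from 2719 to 6203); vertical axis, share of the 28S cDNAs that lie over the base (percent). All 4 libraries peak at 5364 to 5367, and the second peak just below 5000 is tall only in replicate 2 of either group.

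The fewest windows that together held 50% of the 28S cDNAs were 2 and 3 of 38 in Mkt1-HTP, against 1 and 2 for the control. The 5′ part of the RNA (28S positions 1 to 1162) was nearly bare, with 4.13% and 3.49% of the 28S cDNAs in Mkt1-HTP against 0.15% and 5.01% for the control. The middle part (1163 to 2324) held 29.7% and 54.6% against 18% and 38.3%. The 3′ part (2325 to 3485) held 66.2% and 41.9% against 81.9% and 56.7%. In the middle and the 3′ part the replicates of a group differed by more than the strains did within a number, and the groups overlapped.

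The next places varied with the strain or with the replicate number. The window at 4900 to 4999 held 1.88% and 22.5% in Mkt1-HTP, and 1.35% and 19.7% for the control. Both replicate 2 libraries were high and both replicate 1 libraries low, whichever strain they came from. The neighbouring window at 5000 to 5099 had the same order, with 1.09% and 6.06% against 0.301% and 3.99%. Same-numbered libraries bore the same sequencing index in the labels. The index and whatever else was handled together under a number cannot be told apart.

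The window at 4700 to 4799 differed by strain in the count of all distinct cDNAs. With near-identical intervals counted once, the log2 difference in its share of 28S went from 1.41 to -0.31. That count joined intervals linked, also in chains, by steps of 2 nt or less at both ends. Such chains join more where cDNAs lie denser, so this count cannot decide whether the strains differ there. The window held 10.2% and 10.5% of the 28S cDNAs in Mkt1-HTP (566 and 818 cDNAs) and 3.76% and 4.02% for the control (50 and 225 cDNAs). The replicates of each group were within each other's Wilson intervals, and the groups did not overlap. Within replicate 1 the share was 2.7 times that of the control, and within replicate 2 it was 2.61 times. The groups also did not overlap at 5200 to 5299, with 7.95% and 7.13% against 4.36% and 4.72%. Nor did they at 4800 to 4899, with 4.27% and 5.33% against 3.16% and 2.06%. With near-identical intervals counted once, the log2 differences of these windows were 0.26 and 0.38, and neither was called. At 4500 to 4599 the shares were near each other, with 5.54% and 5.15% against 5.11% and 4.49%.

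Toward the 3′ end, the window at 6100 to 6199 held 4.23% and 2.07% in Mkt1-HTP against 0.15% and 1.68% for the control. The control value of 0.15% came from 2 cDNAs, and the ratio to the control was 28.2 in replicate 1 and 1.23 in replicate 2. The window at 5600 to 5699 held 1.11% and 2.12% against 1.5% and 2.07%, with no separation of the groups.

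**Figure D3:**
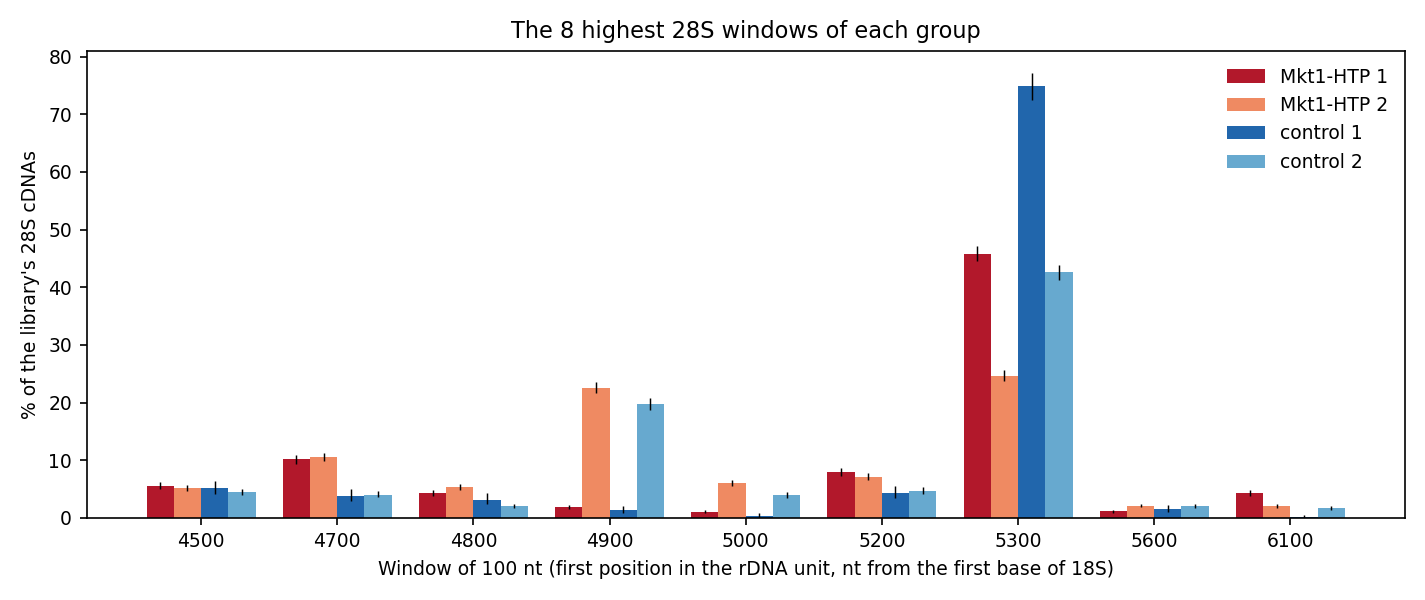
The 8 windows of 100 nt with the highest mean share of 28S cDNAs in each group, which are 9 windows in all: horizontal axis, first position of the window in the rDNA unit; vertical axis, share of the library's 28S cDNAs (percent). Whiskers are 95% Wilson intervals. At 5300 the control bars (74.9% and 42.6%) stand above the Mkt1-HTP bar of the same number (45.8% and 24.6%), and at 4700 both Mkt1-HTP bars (10.2% and 10.5%) stand above both control bars (3.76% and 4.02%).

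The shares of windows were first tested against all cDNAs, with edgeR across 535 windows of the genome that held 10 or more cDNAs. Of these, 12 (2.24%) were higher in Mkt1-HTP and 7 (1.31%) were higher in the control at an adjusted p under 0.05. Of the 33 windows of 28S that were tested, 0 were higher in Mkt1-HTP and 1 was higher in the control, and 2 had an unadjusted p under 0.05. The one called was 5300 to 5399, which held 10.4% and 7.12% of a whole Mkt1-HTP library against 57.2% and 29.3% of a control library (log2 fold change -2.30 ± 0.45 (SE), edgeR adjusted p = 9.92e-05). With the replicate number as a term, 5 windows of the genome (0.935%) were higher in Mkt1-HTP and 1 (0.187%) was higher in the control, and that 1 was again 5300 to 5399. The call was lost without any one of Mkt1-HTP replicate 2 (adjusted p = 0.23), control replicate 1 (0.184) and control replicate 2 (0.0689), and DESeq2 made 0 calls in 28S, with an adjusted p of 0.111 for this window.

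The median log2 fold change was -0.98 over the 28S windows and 4.70 over all windows tested. The second value is a fitted one, as 304 of the 535 windows had no cDNA in either control library, against 1 of the 33 in 28S. Shares of all cDNAs that did not overlap between groups were higher in the control in 6 of 33 windows of 28S, against 15 of 535 (2.8%) over all windows, and higher in Mkt1-HTP in 2 of 33, against 276 of 535 (51.6%). The 6 were 5 windows between 4400 and 5399 and the one at 5600 to 5699.

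The second test asked how cDNAs were spread within 28S, with the library's 28S cDNAs as its size. Without regard to replicate number, edgeR called 0 of 33 windows in either direction (0% of those tested), 1 had an unadjusted p under 0.05, and DESeq2 called 0 as well. That 1 window was 4700 to 4799 (log2 fold change 1.41 ± 0.32 (SE), adjusted p = 0.212). With the replicate number as a block, 3 windows (9.09%) were higher in Mkt1-HTP and 1 (3.03%) was higher in the control. The window at 4700 to 4799 was higher in Mkt1-HTP by 1.41 ± 0.20 (SE) on the log2 scale (edgeR adjusted p = 1.04e-06; -0.31 with near-identical intervals counted once in the unblocked fit), that at 5200 to 5299 by 0.73 ± 0.23 (adjusted p = 0.032) and that at 6100 to 6199 by 2.25 ± 0.77 (adjusted p = 0.0484). The window at 5300 to 5399 was higher in the control, with -0.75 ± 0.07 (adjusted p = 1.5e-10). In the unblocked edgeR fit the same window had -0.74 ± 0.59 (SE, adjusted p = 0.97). With so few libraries the blocked fit borrows spread across windows of the same RNA, and its small p-values lean on that.

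Since shares sum to the whole, a tall window in the control lowers every other window there. An alternative chosen after seeing the data left out the cDNAs of 5300 to 5399 and took the shares over the rest, which were 3019 and 5868 cDNAs in Mkt1-HTP and 334 and 3208 for the control. The window at 4700 to 4799 then held 18.7% and 13.9% in Mkt1-HTP against 15% and 7.01% for the control, and the groups overlapped. The window at 5200 to 5299 held 14.7% and 9.46% against 17.4% and 8.23%. With the replicate block, 0 of the 32 remaining windows were called, and 0 had an unadjusted p under 0.05. Of the 33 windows, 11 had shares of 28S cDNAs that did not overlap with Mkt1-HTP the higher (33.3%) and 0 had the reverse (0%), and the same sum constraint applies to this count.

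The order of likeness between library profiles depended on the measure. Over the 38 windows, Pearson's r was 0.976 between the replicate 1 libraries of both strains and 0.913 between the replicate 2 libraries. It was 0.751 between the Mkt1-HTP replicates and 0.909 between the control replicates. Spearman's rho, on which the tall window weighs less, was 0.839 and 0.891 within the numbers, 0.869 between the Mkt1-HTP replicates and 0.692 between the control replicates. These values are descriptions over windows of one RNA, share the tall window at 5300 and differ in depth. Of the intervals of control replicate 1 (726 pairs of ends), 54.0% occurred with the same ends in Mkt1-HTP replicate 1 and 43.8% in Mkt1-HTP replicate 2. Of those of control replicate 2 (2753), 33.6% occurred in Mkt1-HTP replicate 2 and 26.1% in Mkt1-HTP replicate 1.

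Deletions were found in the control as well as in Mkt1-HTP, and their frequency followed the replicate number. At least 1 deletion was carried by 15.1% of the 28S cDNAs of Mkt1-HTP replicate 1 (95% Wilson interval 14.2% to 16.1%) and 31.7% of those of replicate 2 (30.7% to 32.7%). In the control the share was 14.3% in replicate 1 (12.5% to 16.3%) and 30.2% in replicate 2 (29.1% to 31.5%). The strains overlapped, with means of 23.4% ± 11.7 and 22.3% ± 11.3 (SD, n = 2 each; exact permutation p = 0.667). Within a number the difference between the strains was 0.87 and 1.44 percentage points. Among all cDNAs other than those in the sense of the rRNA within the units, the share followed the replicate number too. It was 12.5% and 23.0% in Mkt1-HTP and 6.44% and 20.9% for the control. Those cDNAs include the ones antisense to the rDNA.

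U was the base most often missing. It made up 54.5% of 1423 deleted bases and 61.2% of 5284 in Mkt1-HTP, and 56.3% of 359 and 58.3% of 4289 for the control. Among the bases that the 28S cDNAs covered, U made up 30.7% and 29.4%, and 33.8% and 30.8%. The share of U in deletions lay above that in coverage in each of the 4 libraries, and the groups overlapped (means 57.9% ± 4.72 and 57.3% ± 1.41, SD, n = 2 each; exact permutation p = 1).

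Most of the cDNAs with a deletion lay over the 8 sites, but so did most cDNAs of any kind. In Mkt1-HTP, 1470 of 5573 and 1936 of 7783 cDNAs lay over none of them. For the control these were 146 of 1331 and 1005 of 5591. Of the cDNAs with a deletion, 83 of 844 and 215 of 2466 lay over none, against 1 of 190 and 69 of 1691. The sites were picked with their counts known, so a lower share elsewhere was partly built in. Among cDNAs that lay over none of the 8 sites, 5.65% and 11.1% carried a deletion in Mkt1-HTP (83 of 1470 and 215 of 1936), and 0.685% and 6.87% for the control (1 of 146 and 69 of 1005). By deletions summed over the libraries of a group, the 10 most often deleted bases of Mkt1-HTP were at 4791, 4793, 4979 to 4983, 5282, 5363 and 5364, and those of the control were at 4594, 4979 to 4983 and 5361 to 5364, so 7 of the 10 were common to both groups. The bases at 4979 to 4983 owed their rank to replicate 2, with 298 to 836 deletions each in Mkt1-HTP and 266 to 812 in the control. In replicate 1 they had 9 to 17 and 5 to 15.

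The site at 4978 to 4984 had the highest share in the control and in Mkt1-HTP replicate 2. A deletion there was carried by 20.6% of 107 overlapping cDNAs and 54.2% of 1846 in Mkt1-HTP, and by 76.2% of 21 and 68.6% of 1298 for the control. Both control libraries were above both Mkt1-HTP libraries. Its commonest form took out 3 bases, and was seen in 16.3%, 40.4%, 71.4% and 58.2% of the cDNAs that spanned it, in the same order. The site lay under the second peak of the profile, and held 40.6% of all deletion-bearing 28S cDNAs in Mkt1-HTP replicate 2 and 52.6% in control replicate 2, against 2.61% and 8.42% in the replicate 1 libraries. Without the cDNAs over it, the share with a deletion was 15% and 23.2% in Mkt1-HTP, and 13.3% and 18.1% for the control.

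The site under the tallest peak, at 5361 to 5364, was deleted in 8.85% to 14.7% of overlapping cDNAs, the narrowest span among the 6 sites shown. The share was 8.85% of 2757 and 9.9% of 2000 overlapping cDNAs in Mkt1-HTP, and 11.0% of 1019 and 14.7% of 2485 for the control. The control values were the higher ones, and the gap between control replicate 1 and Mkt1-HTP replicate 2 was within their Wilson intervals (9.22% to 13.1% and 8.67% to 11.3%).

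At a pair of U runs the deleted share was higher in Mkt1-HTP within each replicate number. At 4791 to 4793, 27.6% of 598 and 46.3% of 895 overlapping cDNAs were deleted in Mkt1-HTP, and 16.3% of 49 and 22.0% of 255 for the control. The groups did not overlap, but the interval of control replicate 1 (8.51% to 29.0%) reached the value of Mkt1-HTP replicate 1. At 5280 to 5282 the shares were 10.4% of 508 and 31.6% of 652, against 0 of 56 and 15.1% of 265. There the groups overlapped. A count of 0 of 56 allows a share of up to 5.36% (3 counts of the total).

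At the U runs further upstream the deleted share was higher in both control libraries than in either Mkt1-HTP library. At 4591 to 4594 the shares were 25.0% of 160 and 24.7% of 162 in Mkt1-HTP, against 46.5% of 43 and 35.9% of 195 for the control, with no overlap of the groups. At 4553 to 4554 they were 12.3% of 276 and 4.11% of 292, against 36.7% of 49 and 12.9% of 171. There the Wilson intervals of Mkt1-HTP replicate 1 (8.95% to 16.7%) and control replicate 2 (8.65% to 18.7%) nearly coincided. At 4591 to 4594 the interval of control replicate 2 (29.5% to 42.8%) overlapped those of Mkt1-HTP (18.9% to 32.2% and 18.7% to 31.9%). Of the 2 sites whose sequences are not shown, 4947 to 4948 was deleted in 0 of 11 and 2.16% of 416 cDNAs of Mkt1-HTP and in 0 of 1 and 10.4% of 250 of the control, and 5008 to 5011 in 0 of 59 and 5.4% of 1499 against 0 of 17 and 0.205% of 974. The counts of 0 allow shares of up to 27.3% (of 11), 5.08% (of 59) and 17.6% (of 17), so a share of a few percent was not detectable at this depth in replicate 1 of either group.

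**Figure D4:**
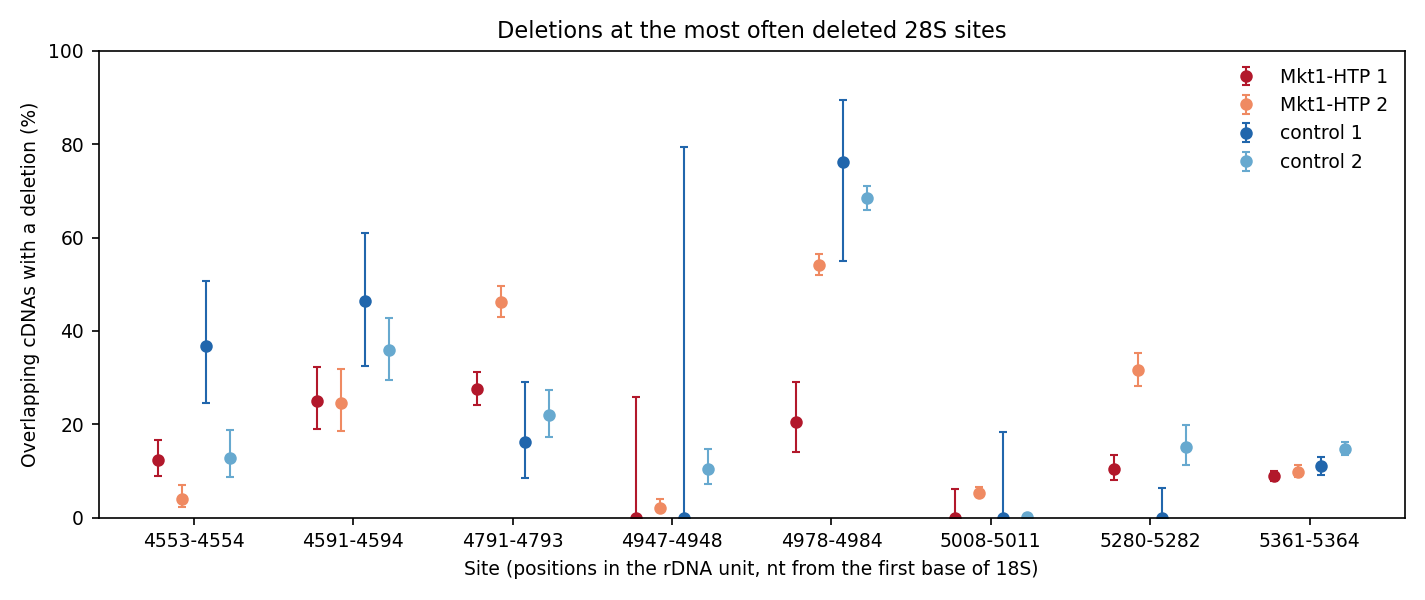
Share of overlapping 28S cDNAs with a deletion at each of the 8 sites: horizontal axis, positions in the rDNA unit; vertical axis, percent of overlapping cDNAs. Points are libraries and whiskers 95% Wilson intervals. Mkt1-HTP lies above the control at 4791 to 4793 (27.6% and 46.3% against 16.3% and 22.0%) and below it at 4978 to 4984 (20.6% and 54.2% against 76.2% and 68.6%), and the whiskers of control replicate 1 are wide.

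No base of 28S passed a test of its deleted share over libraries. Deleted against undeleted cDNAs were compared with edgeR at 111 bases of the genome, 94 of them in 28S, that had 10 or more cDNAs in each library. edgeR called 0 of the 94 in either direction (0% of the 111), and 3 had an unadjusted p under 0.05. Blocked on the replicate number, edgeR again called 0 of the 94, with 16 at an unadjusted p under 0.05, while 4 of the 111 (3.6%) were called higher in the control, all outside 28S. The base most deleted in the summed counts of either group, the U at 4981, was missing from 16.2% and 47.0% of covering cDNAs in Mkt1-HTP against 71.4% and 64.4% for the control (log2 odds ratio -2.26 ± 1.61 (SE), edgeR adjusted p = 0.809). The U at 4793 was missing from 19.0% and 33.0% against 12.2% and 16.1% (log2 odds ratio 1.03 ± 1.70 (SE), edgeR adjusted p = 0.809).

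Within the tallest window, the share of cDNAs with a deletion was 13.1% and 14.5% in Mkt1-HTP and 12.0% and 17.4% for the control, a narrower span than over all of 28S. At 4700 to 4799 it was 33.2% and 55.6% against 20% and 24.0%, and at 4900 to 4999 it was 16.2% and 58.4% against 77.8% and 76.6%. In the last of these, control replicate 1 had 18 cDNAs and Mkt1-HTP replicate 1 had 105. Of the cDNAs assigned by their middle to 5100 to 5199, which were 148 and 114 in Mkt1-HTP and 3 and 40 for the control, 0 carried a deletion in any library.

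The sarcin-ricin loop was barely covered. Its core ACGAGAG was searched for on both strands of the rDNA unit, and within 28S had 1 match in the sense of the RNA, at 5838 to 5844 (III:6416-6422), and 0 in the other. Of all windows of 100 nt in the genome, 0.706% held this motif on either strand. At most 1 and 14 cDNAs of Mkt1-HTP and 0 and 6 of the control lay over it, or 0.0179% and 0.18%, and 0% and 0.107%, of the 28S cDNAs. In control replicate 1 a count of 0 among 1331 cDNAs allows a share of up to 0.225%, above those of the other libraries.

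Because the rDNA units are alike, 1 RNA fragment could be deposited as up to 3 cDNAs. Separate fragments with the same ends could also be placed in different units, and these cases cannot be told apart here. Of the cDNAs told apart by unit position, 22.9% and 17.6% in Mkt1-HTP and 21.4% and 19.6% for the control occurred in all 3 units, and the number of cDNAs for each was 1.67, 1.57, 1.65 and 1.61. Repeats in other units were then counted once, matched by their ends alone and only within the rDNA. This also merged cDNAs within a unit that differed only in their deletions. So counted, 28S held 13.8% and 17.7% of distinct cDNAs in Mkt1-HTP against 65.5% and 57.1% for the control. Near-identical intervals were those linked by steps of 2 nt or less at both ends. A chain of such steps could join intervals that lay further apart, and chains join more where a library is denser. With these also counted once, 28S held 10.5% and 11.8% against 43.2% and 33.8%. The groups stayed apart in both counts.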

How the data were processed

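Per the file headers and the study's methods, the authors removed adapters with Flexbar, sorted barcodes and collapsed PCR duplicates with pyCRAC, took out tRNA reads with STAR 2.7.1a, aligned to ASM294v2 with Novoalign 3.09.02 and ran pyReadCounters (Counters version 1.4.4) with deletions only. The deposited tables hold counts, with 1 distinct cDNA in each row. The reference used here, ASM294v3, has chromosome III of the same length, and the files' gene names matched its 28S genes. Members, windows and named features were chosen with earlier results of these data known. edgeR 4.0.16 (glmQLFit and glmQLFTest, group as the only term, R 4.3.3) tested windows with 10 or more cDNAs over the 4 libraries, and deleted against undeleted cDNAs at bases with 10 or more covering cDNAs in each library and 10 or more deletions. Benjamini-Hochberg adjustment ran over all features of a test, with a threshold of 0.05. DESeq2 1.42.0 was an alternative. Single values were compared by exact permutation (scipy 1.17.1), and intervals are Wilson at 95%, for counting error only. The scripts were tested on simulated counts. Named were the 8 highest windows and the 10 most deleted bases of each group, the 5 commonest ends, and the sarcin-ricin core.

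Replicate numbers paired the libraries because the labels give same-numbered libraries one sequencing index. Their deviations from the group means correlated at 0.319 over 33 windows. Adapter names and numbers are matched differently in different labels, with the pairs unchanged. The blocked fit is given beside a result where it changes a call.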

Additional observations from a re-analysis of the deposited data

How the results depend on the processing

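Leaving out 1 library in turn moved the difference in 28S share (Mkt1-HTP less control) between -50.5 and -42.8 percentage points, that in the 28S to 18S ratio between -21.2 and -5.49, that in the share with a deletion between -7.12 and 9.42 (-6.83 without control replicate 1), and that in the U share of deletions between -2.73 and 3.94 (-0.40 without control replicate 1). The last 2 thus changed sign with single libraries, and all 4 kept their sign under the other ways of counting cDNAs that were run. The mean difference within replicate numbers, the replicate block of these values, was -46.7, -13.3, 1.15 and 0.60. Where a library was left out of a fit, the single library left in its group was given the spread of the other.

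The call of the window at 5300 against all cDNAs was alone under the replicate block. Windows of 28S called in that test were 0 to 1 without single libraries, 0 with DESeq2 and with no minimum count, 2 with cDNAs outside the rDNA as library size (4900 and 5300) and 5 with near-identical intervals counted once (4500, 4700, 4900, 5200 and 5300), all higher in the control. Calls within 28S were 4 with the replicate block and 0 to 3 without single libraries, the 3 being 4900 (3.17), 5000 (3.56) and 6100 (4.37 on the log2 scale) without control replicate 2. No base of 28S was called under any alternative run. The causes of these changes were not tested.

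Profile differences (log2, Mkt1-HTP over control) that turned sign under an alternative were called neither there nor in the unblocked fit. At 4500 to 4599 the difference was -0.17 with TMM factors, -0.55 with DESeq2, -0.17 by 5′ ends, -0.35 with near-identical intervals counted once, -0.13 with rRNA as library size, -0.71 and, blocked, -0.59 without the window at 5300, and -0.31 without control cDNAs shared with Mkt1-HTP. At 4700 to 4799 it was -0.31 with near-identical intervals counted once. At 4800 to 4899 it was -0.089 without the window at 5300. At 4900 to 4999 it was -2.48 without Mkt1-HTP replicate 2, -0.69 with control replicate 1 left out, -0.23 with DESeq2, -0.33 with near-identical intervals, -0.035 with rRNA as library size, and -0.26 and, blocked, -0.40 without the window at 5300. At 5000 to 5099 it was -0.98 and -0.15 without the same 2 libraries in turn. At 5200 to 5299 it was -0.076 and, blocked, -0.019 without the window at 5300, and -0.18 without shared control cDNAs. At 5600 to 5699 it was 0.24 without Mkt1-HTP replicate 1, 0.11 without control replicate 2, 0.063 with repeats in other units counted once and 0.21 with near-identical intervals. Control replicate 1, with 1331 cDNAs, limits every comparison of windows outside 5300.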
